A study of Rattus norvegicus with 9 samples.

Results

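Levels of 7 mature miRNAs were followed in cultured rat cartilage progenitor cells: rno-miR-592, rno-miR-325-5p, rno-miR-384-3p, rno-miR-598-3p, rno-miR-298-5p, rno-miR-298-3p and rno-miR-1247-3p, written below without the rat prefix rno. They are 7 of the 726 miRNA rows of the deposited table and come from 6 hairpins. They were chosen by name, with the values known, as miRNAs of low to moderate level with a large difference between passage 9 and passage 3. The choice fixed no numerical threshold. The first 4 were picked as higher at passage 9 and the other 3 as lower, so these differences are given as a description, with no test.

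All cells were primary cartilage progenitor cells of wild-type rats, grown from the condylar cartilage of the jaw joint. The groups were cells cultured to passage 9 (P9, the replicative senescence group of the study), passage 3 cells under flow fluid shear stress (FFSS), and passage 3 cells without it (P3, the control), with 3 libraries each. Small RNA with inserts of 18 to 40 bases was sequenced, and a level is given here as CPM, the reads of a row scaled to 1000000 miRNA reads in the library. The labels do not say whether the 3 libraries of a group came from separate cultures or animals, so each p-value measures only the spread between these libraries, which may be technical.

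The libraries held 7614513 to 8177357 miRNA reads in P9, 2878910 to 7082142 in FFSS and 7522702 to 8862560 in P3. The level that 3 reads stand for, used as the floor of a library, was 0.394, 0.381 and 0.367 CPM in P9 replicates 1, 2 and 3. It was 1.04, 0.424 and 0.770 CPM in FFSS replicates 1, 2 and 3 and 0.357, 0.399 and 0.339 CPM in P3. FFSS replicates 1 and 3 were therefore the least sensitive libraries. P9 replicate 3 and FFSS replicate 1 each stood apart from their group in the correlation of log CPM across miRNAs. P9 replicate 3 correlated at 0.956 and 0.963 with P9 replicates 1 and 2, which correlated with each other at 0.994. With P3 replicate 2 it correlated at 0.969. FFSS replicate 1 correlated at 0.962 and 0.971 with FFSS replicates 2 and 3, which correlated with each other at 0.986. FFSS replicate 2 correlated at 0.970 with P3 replicate 1. The cartilage markers miR-140-5p, miR-140-3p, miR-455-5p and miR-455-3p were read in all groups and summed to 2590 to 3847 CPM in P9, 6077 to 7202 CPM in FFSS and 4150 to 7370 CPM in P3. The 5 fibroblast and smooth muscle markers (miR-143-3p, miR-145-5p, miR-199a-5p, miR-199a-3p and miR-214-3p), also read in all groups, summed to 165042 to 249573 CPM in P9, 88414 to 144624 CPM in FFSS and 123696 to 135424 CPM in P3, so that P9 lay above P3 without overlap. Among them miR-143-3p was called higher in P9 (log2 fold change over P3 1.35, SE 0.24, adjusted p = 0.00348) and miR-145-5p lower in FFSS (-1.57, SE 0.34, adjusted p = 0.00944). The part of these markers in the values of the 7 miRNAs was not tested.

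A miRNA is cut from a hairpin in a longer transcript, and either arm of the hairpin (5p or 3p) can be loaded into an Argonaute protein, where bases 2 to 8 of the mature strand, the seed, pair with target messages. A miRNA inside a gene is often transcribed with that host gene, and a miRNA in an imprinted locus is transcribed from the chromosome of 1 parent. Of the miRNAs here, miR-592 and miR-598 are known as miRNAs inside protein-coding genes, miR-384-5p is known from synaptic plasticity in rodent neurons, and miR-298 was reported to repress the protease BACE1 in mouse. In human chondrocytes, miR-1247 was reported to target SOX9, the master transcription factor of cartilage. That report is not assigned here to either arm, and so not to miR-1247-3p.

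RefSeq (build GRCr8) gave a mature sequence for 6 of the 7, and these are printed 5′ to 3′, with the seed in capitals, to show that no 2 of them share one. Each lies on the minus strand.
miR-592: aUUGUGUCaauaugcgaugaugu
miR-325-5p: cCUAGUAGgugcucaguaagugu
miR-384-3p: aUUCCUAGaaauuguucacaau
miR-298-5p: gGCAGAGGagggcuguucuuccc
miR-298-3p: aGGAACUAgccuucucucugcu
miR-1247-3p: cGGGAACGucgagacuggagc

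No other RefSeq rat miRNA in the table used here carried any of these 6 seeds. G and C made up 34.8% of the bases of miR-592, 47.8% of miR-325-5p and 27.3% of miR-384-3p, against 65.2% of miR-298-5p, 50.0% of miR-298-3p and 66.7% of miR-1247-3p. The median over the 401 tested rows with a sequence was 47.6%. Over the 395 of these that are not among the 7, Spearman's rho between G and C content and the log2 fold change was 0.05 for P9 over P3 and 0.12 for FFSS over P3, values across miRNAs and not across samples.

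The 6 hairpins lie at 5 places in the genome. The miR-592 sequence (chr4:57470804-57470826) lies within the span of Grm8, a metabotropic glutamate receptor gene read from the same strand. Mir598, on chromosome 15, lies within the span of Xkr6, a gene of the XK family of membrane proteins. The annotation used here gives gene spans and not exons, so intron and exon could not be told apart from it. The hairpins of miR-325 and miR-384 lie 32543 bases apart on the X chromosome, and both lie within the span of the same long noncoding RNA gene, LOC103690870, on the same strand. The hairpin of miR-298 is on chromosome 3, 376 bases from that of miR-296 and next to Gnas, an imprinted gene. The hairpin of miR-1247 is on chromosome 6 next to Dio3, at one end of the imprinted Dlk1-Dio3 locus. Neither lies within the span of an annotated gene, so of the 7 the description as miRNAs inside protein-coding genes holds for miR-592 and miR-598-3p.

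At passage 9, rno-miR-592 was read at 50.7, 38.5 and 6.48 CPM, from 386, 303 and 53 reads. Under shear stress it was at 0, 0.282 and 0.513 CPM (0, 2 and 2 reads), and in P3 at 0.119, 0.532 and 0.903 CPM (1, 4 and 8 reads). All 3 P9 libraries lay above all 6 others, and all 3 FFSS libraries and P3 replicate 1 lay under their floor of 3 reads.

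The mean of miR-592 was 31.9 ± 22.8 CPM in P9, 0.265 ± 0.257 CPM in FFSS and 0.518 ± 0.392 CPM in P3 (SD, n = 3). The ratio of P9 to P3 was 59.8 from the pooled reads, with a 95% exact counting interval of 34.8 to 113. Such intervals cover counting error only, and PCR copies are not independent molecules. The log2 fold change fitted across all rows by edgeR was 5.87 (SE 0.82), first in rank from the top among the 439 miRNAs that passed the filter on low counts. It was 6.59 without P3 replicate 3, which held 8 of the 13 P3 reads, and 5.38 without P3 replicate 1. In bulk RNA, more or fewer cells of a type and more or less RNA per cell cannot be told apart.

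rno-miR-598-3p, the second miRNA within a protein-coding gene, was the most abundant of the 7. It had 79.8, 62.5 and 39.5 CPM in P9, 15.3, 31.1 and 24.1 CPM in FFSS and 28.3, 20.7 and 22.3 CPM in P3, from at least 44 reads in each library. The P9 libraries lay above the other 6, while FFSS and P3 overlapped. Means were 60.6 ± 20.2 CPM in P9, 23.5 ± 7.91 CPM in FFSS and 23.8 ± 3.98 CPM in P3 (SD, n = 3), and the log2 fold change of P9 over P3 was 1.40 (SE 0.34). The other arm, miR-598-5p, had 2 reads in P9, 1 in FFSS and 2 in P3 in all, so almost all reads of this hairpin were of the 3p arm.

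**Figure D1:**
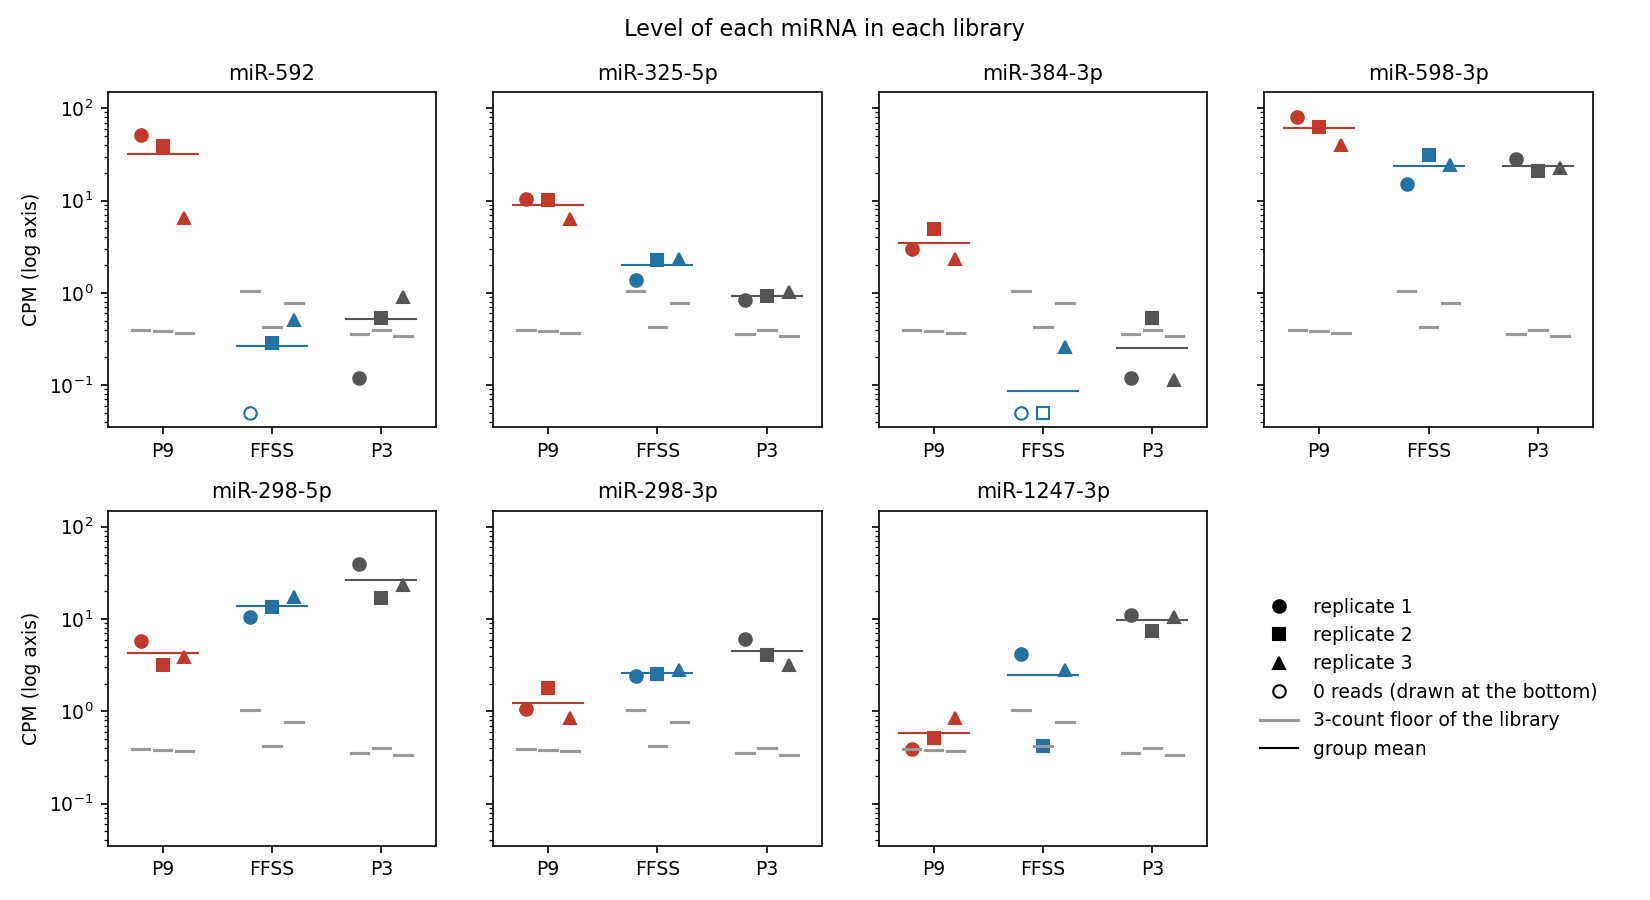
Level of each of the 7 miRNAs in CPM (log axis) in each library, with P9, FFSS and P3 from left to right, the group mean as a line and the 3-count floor of each library as a grey dash; open symbols had 0 reads. The P9 libraries lie above every P3 library for the upper 4 miRNAs and below every P3 library for the lower 3, and miR-592 in P9 replicate 3, at 6.48 CPM, lies below the other P9 libraries.

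The hairpins of miR-325 and miR-384, inside the same long noncoding RNA gene, are printed 5′ to 3′ from RefSeq (GRCr8) with both mature arms in capitals, because both arms of each were read.
Mir325: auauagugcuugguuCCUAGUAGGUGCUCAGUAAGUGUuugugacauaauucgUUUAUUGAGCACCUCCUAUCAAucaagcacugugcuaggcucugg
Mir384: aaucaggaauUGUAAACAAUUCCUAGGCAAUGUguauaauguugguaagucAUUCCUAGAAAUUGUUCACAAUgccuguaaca

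They lie at chrX:74523514-74523611 and chrX:74490889-74490971 on the minus strand. rno-miR-325-5p had 10.4, 10.04 and 6.24 CPM in P9 (79, 79 and 51 reads), 1.39, 2.26 and 2.31 CPM in FFSS (4, 16 and 9 reads) and 0.832, 0.931 and 1.02 CPM in P3 (7, 7 and 9 reads). The 3 groups did not overlap, with FFSS between P9 and P3. Means were 8.88 ± 2.30 CPM in P9, 1.99 ± 0.517 CPM in FFSS and 0.926 ± 0.0917 CPM in P3 (SD, n = 3), and P9 was 3.28 above P3 on the log2 scale (SE 0.42).

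rno-miR-384-3p, the lowest of the 7 in mean level over the groups, had 3.02, 4.96 and 2.32 CPM in P9 (23, 39 and 19 reads). It had 0, 0 and 0.257 CPM in FFSS, where the 3 libraries held 1 read in all, and 0.119, 0.532 and 0.113 CPM in P3 (1, 4 and 1 reads). Only P3 replicate 2 exceeded the floor of 3 reads outside P9. The ratio of pooled reads of P9 to P3 was 14.1 (counting interval 6.23 to 39.7), and the log2 fold change 3.77 (SE 0.72). Without P3 replicate 2, which held 4 of the 6 P3 reads, the log2 fold change was 4.82.

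The other arms of these hairpins stood higher at passage 9 too, in the same libraries and so with no independent weight. miR-325-3p had 44, 36 and 11 reads in P9, 0, 4 and 4 in FFSS and 4, 3 and 1 in P3. miR-384-5p had 29, 20 and 21 reads in P9, 0, 5 and 0 in FFSS and 3, 3 and 0 in P3. Their log2 fold changes of P9 over P3 were 3.56 (SE 0.72) and 3.57 (SE 0.80). The 5p arm made up 69.7% of the miR-325 reads in P9 (95% exact binomial interval 64.1 to 74.8%), 78.4% in FFSS (61.8 to 90.2%) and 74.2% in P3 (55.4 to 88.1%), so a difference in arm use was not detectable at this depth. For miR-384 the 5p share was 46.4% of 151 reads in P9 (38.2 to 54.6%), and FFSS and P3 held 6 and 12 reads of both arms.

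miR-384-5p carries the seed of the miR-30 family, a family present in most tissues, and its sequence is set beside that of miR-30a-5p for this reason, with the seed in capitals.
miR-384-5p: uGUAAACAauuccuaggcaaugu
miR-30a-5p: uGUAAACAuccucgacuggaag

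Base by base, 12 of the 22 positions compared with miR-30a-5p were equal, and these include the seed. miR-384-5p averaged 2.97 CPM in P9, 0.235 CPM in FFSS and 0.252 CPM in P3. For miR-30a-5p the means were 2005 CPM in P9, 1381 CPM in FFSS and 1005 CPM in P3. Its P9 replicate 3, at 981 CPM, lay within the P3 libraries (1017, 792 and 1205 CPM). The other rows with this seed differed from it. miR-30c-5p averaged 999.5 CPM in P9, 1505 CPM in FFSS and 919.9 CPM in P3. miR-30e-5p was lower in P9, with 367.9 CPM, against 309.5 CPM in FFSS and 487.0 CPM in P3.

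The 3 miRNAs chosen as lower at passage 9 come from hairpins beside imprinted genes, printed with both arms in capitals because their reads are given by arm.
Mir298: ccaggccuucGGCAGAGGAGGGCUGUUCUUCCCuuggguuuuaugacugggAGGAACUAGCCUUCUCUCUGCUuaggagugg
Mir1247: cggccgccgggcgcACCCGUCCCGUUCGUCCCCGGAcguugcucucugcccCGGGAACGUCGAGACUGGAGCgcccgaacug

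They lie at chr3:183470522-183470603 and chr6:135105885-135105966 on the minus strand. rno-miR-298-5p had 5.78, 3.18 and 3.91 CPM in P9 (44, 25 and 32 reads), 10.4, 13.6 and 17.5 CPM in FFSS (30, 96 and 68 reads) and 39.6, 16.7 and 23.2 CPM in P3 (333, 126 and 206 reads). P9 lay below both other groups, and FFSS overlapped P3 only between FFSS replicate 3 and P3 replicate 2. Means were 4.29 ± 1.34 CPM in P9, 13.8 ± 3.52 CPM in FFSS and 26.5 ± 11.8 CPM in P3 (SD, n = 3), with a log2 fold change of P9 over P3 of -2.54 (SE 0.38).

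rno-miR-298-3p, from the opposite arm, had 1.05, 1.78 and 0.856 CPM in P9 (8, 14 and 7 reads), 2.43, 2.54 and 2.82 CPM in FFSS (7, 18 and 11 reads) and 6.06, 4.12 and 3.16 CPM in P3 (51, 31 and 28 reads). The 3 groups did not overlap and FFSS lay between the others. Its log2 fold change of P9 over P3 was -1.75 (SE 0.44). The 5p arm held 77.7% of the hairpin's pooled reads in P9 (69.6 to 84.5%), 84.3% in FFSS (79.0 to 88.8%) and 85.8% in P3 (83.1 to 88.2%). By library it was 84.6%, 64.1% and 82.1% in P9 replicates 1, 2 and 3 and 86.7%, 80.3% and 88.0% in P3. The lower P9 share thus came mainly from P9 replicate 2, with 39 reads of both arms.

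The neighbour miR-296-3p, 376 bases away from that hairpin in the genome, was read at 16, 9 and 8 reads in P9, 0, 8 and 12 in FFSS and 75, 28 and 50 in P3. Its means were 1.41 ± 0.606 CPM in P9, 1.40 ± 1.56 CPM in FFSS and 6.09 ± 2.63 CPM in P3 (SD, n = 3), and both P9 and FFSS lay below P3 without overlap.

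rno-miR-1247-3p had 0.394, 0.508 and 0.856 CPM in P9 (3, 4 and 7 reads), 4.17, 0.424 and 2.82 CPM in FFSS (12, 3 and 11 reads) and 11.2, 7.44 and 10.5 CPM in P3 (94, 56 and 93 reads). P9 and FFSS both lay below P3 and overlapped each other through FFSS replicate 2, and P9 replicate 1 and FFSS replicate 2 stood at the floor of 3 reads. Means were 0.586 ± 0.241 CPM in P9, 2.47 ± 1.90 CPM in FFSS and 9.70 ± 1.99 CPM in P3 (SD, n = 3). The log2 fold change of P9 over P3 was -3.92 (SE 0.66), the lowest of the 439 rows.

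**Figure D2:**
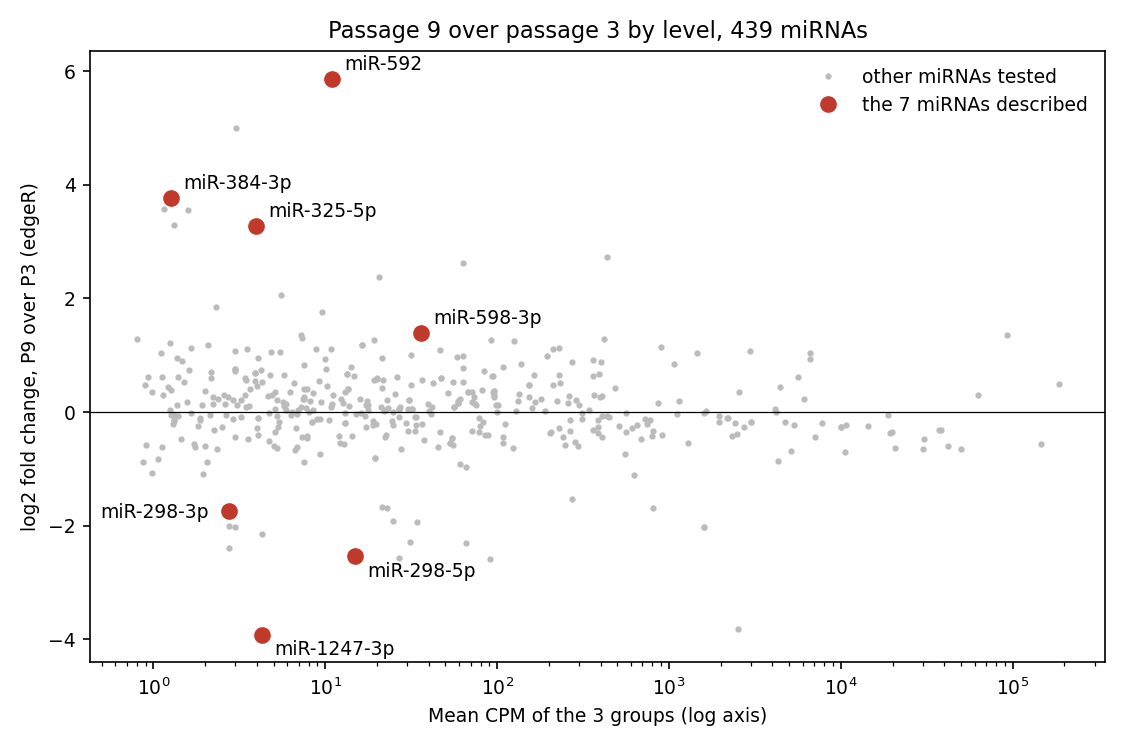
Fitted log2 fold change of P9 over P3 against the mean level over the 3 groups in CPM (log axis) for 439 miRNAs, with the 7 described in red. miR-592 has the highest value, 5.87, and miR-1247-3p the lowest, -3.92; the 7 were chosen on this axis.

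As a description of the choice, 7 of 7 had P9 and P3 libraries without overlap, where 25.3% of the 439 tested rows did, and all 7 were among the 7.29% of rows with an adjusted p under 0.05. Both shares follow from how the miRNAs were picked. All 7 passed the low-count filter, but miR-592 and miR-384-3p did so only through the P9 libraries, where they were high, and miR-1247-3p had 10 reads or more in each library only in P3. Leaving out P9 replicate 3 could not undo the non-overlap, as groups that stand apart stay apart with fewer libraries.

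P9 replicate 3 was the lowest P9 library for each of the 4 higher miRNAs. For miR-592 it lay 6.88 times below the mean of P9 replicates 1 and 2, and for miR-598-3p, miR-384-3p and miR-325-5p it lay 1.80, 1.72 and 1.64 times below. Without that library the ratio of mean CPM of P9 to P3 was 86.1 for miR-592, against 61.6 with it, and 12.5 for that library alone. Among the 3 lower miRNAs, P9 replicate 3 was nearest to P3 only for miR-1247-3p. In the other rows with an adjusted p under 0.05, it was the nearest of the P9 libraries to P3 for 7 of 13 higher rows and 6 of 12 lower rows. The muscle markers miR-1b, miR-133a-3p and miR-206-3p summed to 512 CPM in P9 replicate 3, against 155 and 140.1 CPM in P9 replicates 1 and 2, 179.9 to 512 CPM in FFSS and 133 to 145 CPM in P3, with none at 0 in a whole group. Other marker levels departed in that library too. In P9 replicates 1, 2 and 3 the liver marker miR-122-5p stood at 3.94, 3.43 and 22.9 CPM. The endothelial marker miR-126a-3p stood at 284, 269 and 489 CPM, and the epithelial markers summed to 77.7, 75.4 and 25.2 CPM. The cartilage sum and the fibroblast and smooth muscle sum were lowest there. Blood markers (69.5, 301 and 307 CPM) did not set that library apart. The part of all these markers in its lower values was not tested.

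**Figure D3:**
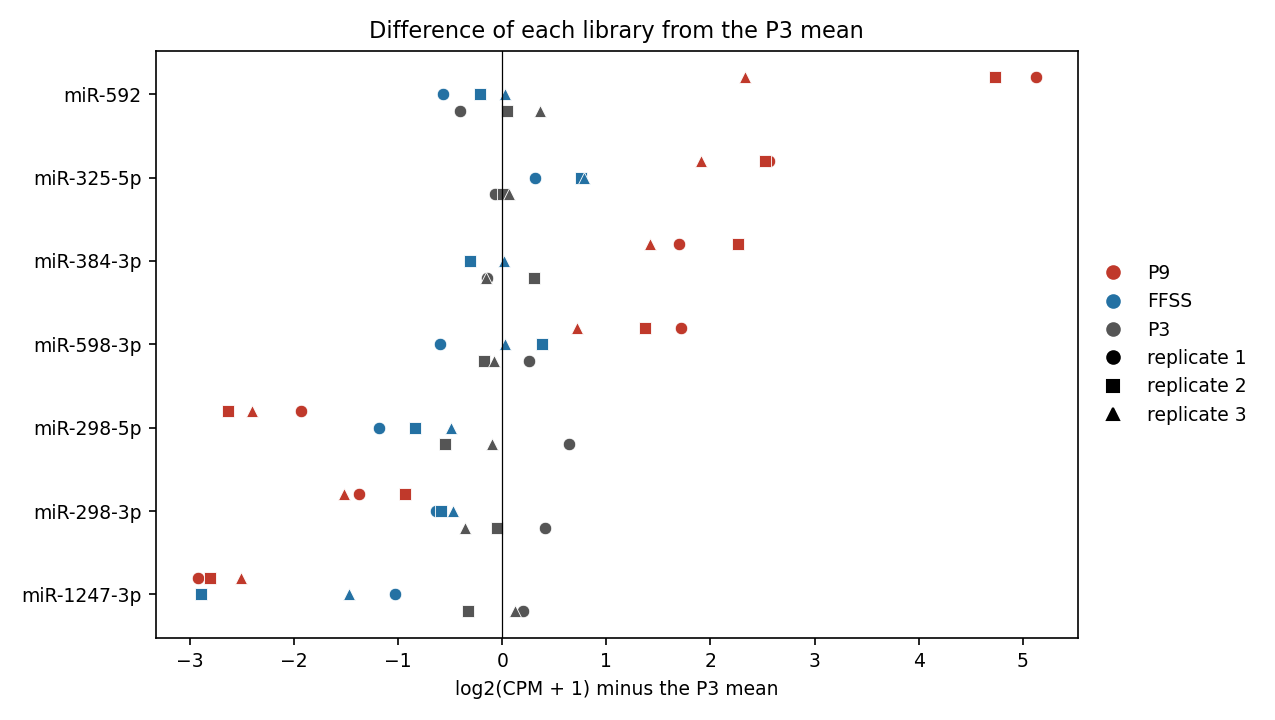
Difference of log2(CPM + 1) of each library from the P3 mean for the 7 miRNAs, with P9 in red, FFSS in blue and P3 in grey and a symbol for each replicate. For miR-592 P9 replicate 3 stands at 2.33, against 5.12 and 4.74 in P9 replicates 1 and 2, and for miR-325-5p, miR-298-5p, miR-298-3p and miR-1247-3p the FFSS mean lies between those of P9 and P3.

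The choice was worded on P9 and P3 and not on FFSS, but it was made with earlier results of these data known. FFSS against P3 was tested across all rows, and the P3 values are those behind the choice. A miRNA picked as high in P3 is thereby favoured to be lower in FFSS, and one picked as low in P3 to be higher. Of the 7, only miR-1247-3p was called, as lower in FFSS (log2 fold change -2.15, SE 0.61, edgeR quasi-likelihood test with Benjamini-Hochberg adjustment over 439 rows, adjusted p = 0.0313), with all 3 FFSS libraries below all 3 P3 libraries, and 0 passed as higher in edgeR, DESeq2 or limma-voom. At an unadjusted p under 0.05 there were 1 higher and 2 lower, a description only, as no share over all rows was taken at that limit. DESeq2 called 2, both lower, where it called 43 higher and 74 lower of the 439 rows. Over all rows 20.5% passed in edgeR, 6.83% higher and 13.7% lower, so 1 of 7, or 14.3%, lies near the background. The groups did not overlap for 3 of the 7, or 42.9%, against 41.5% of all rows. The call on miR-1247-3p was lost without FFSS replicate 3 (adjusted p = 0.0862) or P3 replicate 1, 2 or 3 (0.0744, 0.0592 and 0.0769). This miRNA passed the low-count filter through its P3 reads and was chosen as high there, so its call is not independent of the choice.

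Summed markers of other cell types differed between FFSS and P3 without overlap for endothelium, liver, blood, islet and muscle, and overlapped for epithelium. The muscle markers summed to 179.9 to 512 CPM in FFSS and 133 to 145 CPM in P3. The endothelial marker miR-126a-3p was at 551 to 686 CPM in FFSS and 377 to 399 CPM in P3, and the liver marker miR-122-5p at 15.5 to 51.4 CPM in FFSS and 9.87 to 11.7 CPM in P3. The 6 blood markers summed to 167 to 592 CPM in FFSS and 75.7 to 156 CPM in P3, where miR-144-3p was at 0. The 7 epithelial markers summed to 90.4 to 226 CPM in FFSS and 81.1 to 102 CPM in P3, and the 3 markers of pancreatic islet and neuroendocrine cells to 1186 to 2497 CPM in FFSS and 4711 to 7957 CPM in P3. Of these, edgeR called miR-142-5p (1.53, SE 0.49, adjusted p = 0.0437) and miR-200b-3p (1.53, SE 0.47, adjusted p = 0.0399) higher, and miR-7a-5p lower (-1.72, SE 0.38, adjusted p = 0.00985). Their part in the values of the 7 was not tested.

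The other 6 of the 7 did not pass. miR-298-5p stood at -0.95 (SE 0.36, adjusted p = 0.0730) and passed in DESeq2 (0.0485) and without P9 replicate 3 (0.0298). miR-298-3p stood at -0.79 (SE 0.43, adjusted p = 0.207) and miR-325-5p at 1.07 (SE 0.46, adjusted p = 0.112), both without overlap of the groups. miR-598-3p stood at -0.04 (SE 0.34, adjusted p = 0.948), and its sign turned without FFSS replicate 1 or 3.

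For miR-592 and miR-384-3p the depth limits this comparison. At the P3 mean level, FFSS replicates 1, 2 and 3 would hold 1.49, 3.67 and 2.02 reads of miR-592 and 0.733, 1.80 and 0.992 reads of miR-384-3p. The pooled ratio of FFSS to P3 was 0.551 for miR-592 (counting interval 0.131 to 1.78; adjusted p = 0.588) and 0.298 for miR-384-3p (0.00648 to 2.46; adjusted p = 0.399). A difference was therefore not detectable at this depth.

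P9 against FFSS, which shares the P9 libraries with the choice, is given as a description. The libraries of P9 and FFSS stood apart for 6 of the 7, the 4 higher miRNAs and both arms of miR-298, against 42.8% of all rows (23% higher and 19.8% lower), and they overlapped for miR-1247-3p. The pooled ratio was 109 for miR-592 (42.3 to 399.8), 47.4 for miR-384-3p (8.28 to 1897), 4.22 for miR-325-5p (2.85 to 6.46) and 2.33 for miR-598-3p (2.07 to 2.62).

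Among neighbours in the genome, miR-296-3p fell under shear stress (log2 fold change -2.11, SE 0.63, adjusted p = 0.0379), while its neighbours miR-298-5p and miR-298-3p gave the values above. miR-325-3p and miR-384-5p did not pass (0.74, SE 0.92, adjusted p = 0.573, and 0.41, SE 1.10, adjusted p = 0.809).

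The other arm of the miR-1247 hairpin, miR-1247-5p, had 2, 0 and 14 reads in P9, 5, 51 and 19 reads in FFSS and 34, 17 and 14 reads in P3. These are 0.263, 0 and 1.71 CPM in P9, 1.74, 7.20 and 4.88 CPM in FFSS and 4.04, 2.26 and 1.58 CPM in P3, with overlap between the groups (FFSS against P3 0.86, SE 0.74, adjusted p = 0.400).

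The share of the 5p arm was compared between FFSS and P3 after the values were seen. Its P3 values include the 3p reads that the choice picked as high, which favours a low 5p share of miR-1247 in P3. The shares are therefore a description, with no test. An exact permutation test of 3 libraries against 3 also cannot give a two-sided p under 0.1. The share of the 5p arm in the reads of the miR-1247 hairpin was 29.4%, 94.4% and 63.3% in FFSS replicates 1, 2 and 3 (exact binomial intervals 10.3 to 56.0%, 84.6 to 98.8% and 43.9 to 80.1%). In P3 it was 26.6%, 23.3% and 13.1% (19.1 to 35.1%, 14.2 to 34.6% and 7.34 to 21.0%). The FFSS libraries lay above the P3 libraries, with a mean of 62.4 ± 32.5% in FFSS and 21.0 ± 7.03% in P3 (SD, n = 3). FFSS replicate 1 lay within the counting interval of P3 replicate 1. For the miR-298 hairpin the same share was 83.8 ± 2.52% in FFSS and 85.0 ± 4.16% in P3 (SD, n = 3). The P9 libraries held 5, 4 and 21 reads of both miR-1247 arms, and 40.0%, 0% and 66.7% of them were 5p.

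**Figure D4:**
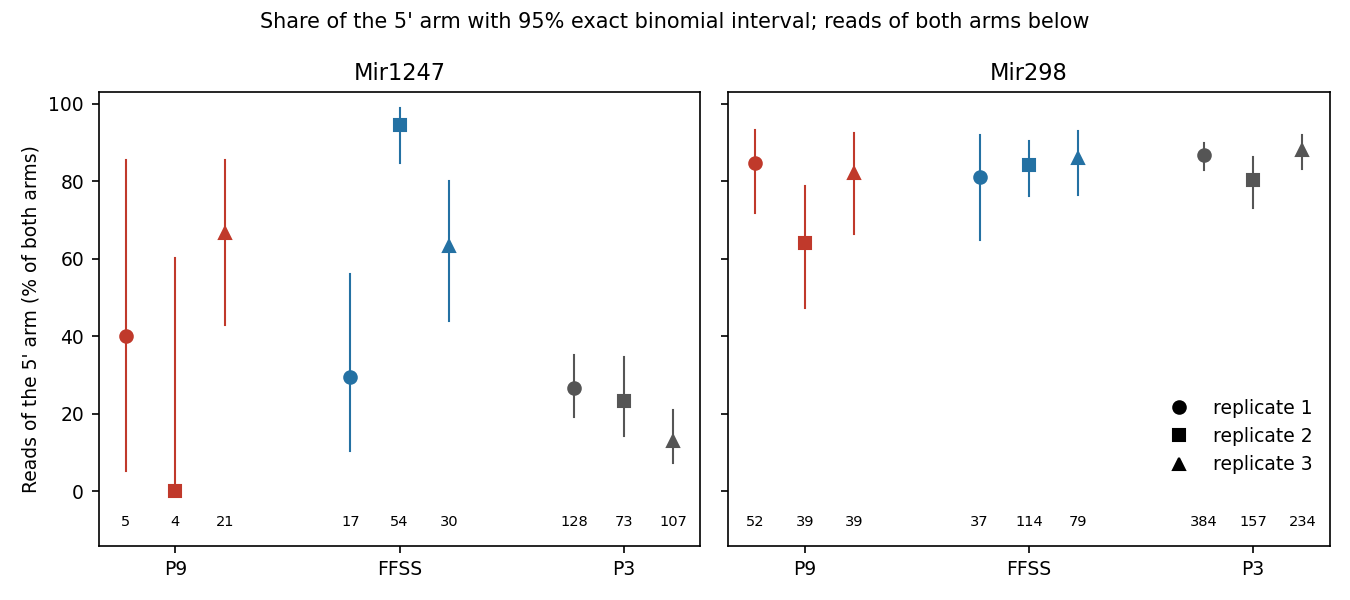
Reads of the 5' arm as a percentage of the reads of both arms of the miR-1247 and miR-298 hairpins in each library, with the 95% exact binomial interval as a line and the number of reads of both arms below. For miR-1247 the FFSS libraries stand at 29.4%, 94.4% and 63.3%, above the P3 libraries, while the miR-298 shares of FFSS and P3 overlap.

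The Dlk1-Dio3 locus holds a large group of miRNAs that are expressed from the maternal chromosome as long transcripts. Of its 58 hairpins in RefSeq, 48 lie on the plus strand and 10 on the minus strand. That of miR-1247 is among the 10 and lies at the Dio3 end. The nearest other measured row, miR-410-3p, lay 526 kb away. Of the 70 other tested rows of the locus, some of which share reads, 60 had a positive log2 fold change for P9 over P3, with a median of 0.36, against 0.06 over all rows, and a lowest value of -0.56. None of the 70 passed in edgeR, DESeq2 or limma-voom for P9 against P3, and 2 had an unadjusted p under 0.05 in edgeR. miR-1247-3p, at -3.92, the value it was chosen for, lay below that lowest value. The fitted value of miR-1247-5p was -1.82 (SE 0.85) with overlapping groups and did not pass (adjusted p = 0.290), and its ratio of mean CPM of P9 to P3 was 0.251, against 0.050 without P9 replicate 3. Under shear stress 69 of the 70 had a negative value and 41 fell, against 13.7% of all rows, with a median of -1.52, against 0.02 over all rows.

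**Figure D5:**
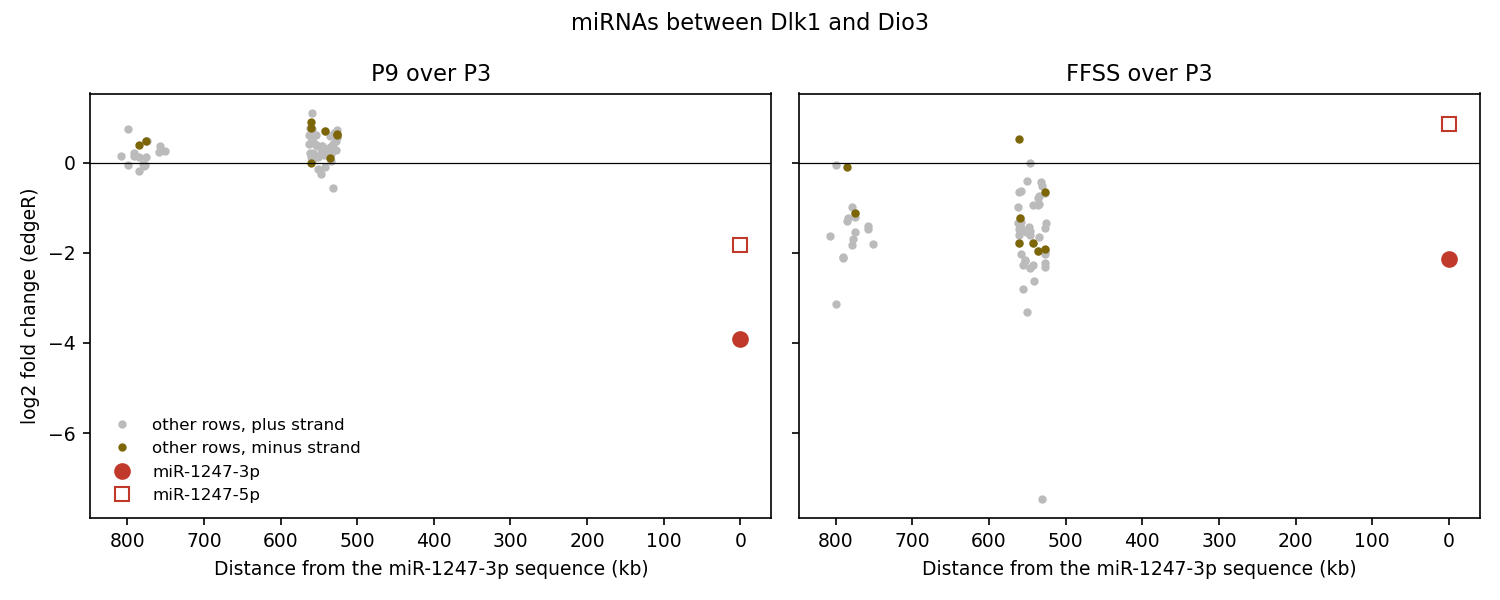
Fitted log2 fold change of P9 over P3 (left) and of FFSS over P3 (right) for the tested rows between Dlk1 and Dio3 against their distance in kb from the miR-1247-3p sequence, with the arms of miR-1247 in red and minus-strand rows in brown. On the left miR-1247-3p, at -3.92, lies below the 70 other rows; on the right most rows are below 0, and the lowest grey point is a miRNA with 0 reads in FFSS, whose fitted value depends on the prior count.

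The X chromosome offers the same comparison for miR-325 and miR-384. Of 45 other tested rows found only on the X chromosome, 4 were higher at passage 9: miR-325-3p, miR-384-5p, miR-221-3p and miR-222-3p. The first 2 are the other arms of the chosen hairpins, and over all rows 3.87% were higher. With edgeR 0 were lower, and 3 had an unadjusted p under 0.05 on that side, while DESeq2 and limma-voom called 1 each. The median was 0.09, against 0.06 over all rows. In edgeR, 2 rose and 6 fell under shear stress, against 6.83% higher and 13.7% lower over all rows, with a median of -0.16.

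Other miRNAs of the nervous system, and others inside protein-coding genes, were counted beside the 4 higher miRNAs. Of 24 nervous system miRNAs, a list that leaves out the 7, 16 were tested, and 0 passed edgeR in either direction for P9 against P3 (2 higher and 1 lower at an unadjusted p under 0.05; DESeq2 called 1 lower and limma-voom 0), against 3.87% higher and 3.42% lower over all rows. Their median was 0.17, against 0.06 over all rows. The groups did not overlap for 1 higher and 2 lower of the 16 rows, against 11.2% higher and 14.1% lower over all rows. Under shear stress 3 of the 16 rose, miR-9a-5p (1.21, SE 0.39, adjusted p = 0.0464), miR-9a-3p (1.75, SE 0.54, adjusted p = 0.0399) and miR-132-3p (1.08, SE 0.32, adjusted p = 0.0379), and miR-433-3p fell (-1.83, SE 0.37, adjusted p = 0.00841), against 6.83% higher and 13.7% lower over all rows. Of the 3, limma-voom called miR-9a-3p and miR-132-3p, and DESeq2 called 4 higher. miR-9a-5p is a miRNA of neural progenitors and miR-132-3p is induced by neuronal activity.

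Markers of neurons and glia were read in all groups, but the defining one was near 0. miR-124-3p, the miRNA that marks neurons most strongly, had 0, 0 and 4 reads in P9, 4, 5 and 1 in FFSS and 3, 2 and 1 in P3. The 7 of 8 markers in the table summed to 1019, 999.8 and 2425 CPM in P9 replicates 1, 2 and 3, to 624.5, 1261 and 1655 CPM in FFSS and to 1294, 1569 and 755 CPM in P3, and none of the 7 was at 0 in a whole group. The sum was thus highest in P9 replicate 3, where miR-592, miR-325-5p, miR-384-3p and miR-598-3p were the lowest of the P9 libraries. Most of it came from miR-128-3p and miR-129-5p, which in P9 replicate 3 stood at 1488 and 876 CPM. miR-9a-5p was also highest there among the P9 libraries, at 57.2 CPM. Other markers of this list were lowest there. In P9 replicates 1, 2 and 3 miR-338-3p stood at 6.96, 5.97 and 1.59 CPM and miR-138-5p at 2.10, 1.65 and 1.22 CPM. miR-219a-5p held 3, 5 and 3 reads. The part of these markers in the values of the 4 miRNAs was not tested.

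Of 57 miRNAs inside protein-coding genes, again without the 7, 51 were tested. In edgeR 0 were higher (3 at an unadjusted p under 0.05, and 0 with DESeq2 or limma-voom) and 4 were lower at passage 9: miR-708-5p and miR-708-3p, from the teneurin gene Tenm4, and miR-378a-3p and miR-378a-5p, from Ppargc1b, a coactivator gene of mitochondrial metabolism. The reads of miR-378a-3p cannot be told apart from those of miR-3557-5p, whose counts were nearly the same. For the 51, the median log2 fold change was -0.08, against 0.06 over all rows, with 19 of 51 positive. Over all rows 3.87% were higher and 3.42% lower, and DESeq2 and limma-voom called 6 of the 51 lower. miR-708-3p averaged 14.9 ± 6.27 CPM in P9 and 78.6 ± 10.4 CPM in P3 (SD, n = 3; -2.31, SE 0.43, adjusted p = 0.00395), and miR-378a-5p 8.08 ± 0.229 CPM in P9 and 27.5 ± 9.79 CPM in P3 (-1.68, SE 0.38, adjusted p = 0.0134). Under shear stress 2 of the 51 rose, miR-224-5p and miR-652-3p (1.55 and 0.99), and miR-98-5p fell (-0.85), against 6.83% higher and 13.7% lower over all rows. DESeq2 called 4 higher and 3 lower.

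Across the 9 libraries, the 4 higher miRNAs followed each other with Pearson correlations of log2(CPM + 1) of 0.861 to 0.954. The 3 lower ones correlated with each other at 0.814 to 0.897, and each higher one with each lower one at -0.889 to -0.614. These points share their group, library and depth, and the opposite signs follow from the choice. Over 416 rows averaging 10 counts or more, miR-34c-5p, a miRNA transcribed under p53, was the most alike to miR-592 (0.967) and to miR-598-3p (0.982) and second to miR-325-5p (0.945), after miR-222-5p (0.953). The second for miR-592 was miR-146b-5p (0.952) and for miR-598-3p miR-325-3p (0.955). miR-592 (0.954) and miR-146b-5p (0.951) were most alike to miR-384-3p. The arms of miR-298 were each other's nearest row (0.897), ahead of miR-26a-5p for miR-298-5p (0.860) and miR-1247-3p for miR-298-3p (0.814). For miR-1247-3p it was the pair miR-501-3p and miR-3560, whose counts agreed within 10% or 5 reads in each library, so that the reads cannot be assigned to either (0.912 each).

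miR-34c-5p itself averaged 989 ± 433 CPM in P9, 158 ± 75.1 CPM in FFSS and 152 ± 2.71 CPM in P3 (SD, n = 3). It was found by this search, so its likeness to the chosen miRNAs is a description.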

How the data were processed

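The authors' deposited table gave, per the file headers, a read count and a TPM value for each of 726 miRNA rows in each of 9 libraries. TPM equalled the count scaled to 1000000 reads of the library (CPM), with a largest difference of 4.85e-05, so it was not tested. Bowtie and the build Rnor_6.0 come from the submitters' processing notes. Neither the counting program nor its strand setting is given in the sources used here. Every value column was matched to a library.

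The read counts were filtered with filterByExpr (439 rows kept, 0.00685% of reads removed), scaled by TMM and tested with the robust edgeR 4.0.16 quasi-likelihood test in R 4.3.3, in 1 model of all 9 libraries, with Benjamini-Hochberg adjustment at 0.05. Simulated counts with known changes were used to check the fit. limma 3.58.1, DESeq2 1.42.0, other scalings and filters, 2-group fits, a replicate block and leaving out each library were alternatives. Of the 7, the 6 that average 10 counts or more were compared with all such rows, and none matched another within 10% or 5 reads in every library.

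The 7 miRNAs and the lists were chosen with earlier results of these data known. Named are the 7, the other arms and miR-296 beside miR-298, the 2 most correlated rows of each, called rows of the lists (up to 4 per direction) and rows sharing a seed. The neuron and glia markers miR-124-3p, miR-128-3p, miR-129-5p, miR-338-3p, miR-138-5p and miR-219a-5p were named after their values were seen. So were markers listed as summed levels, miR-410-3p and the read-sharing miR-3557-5p. The comparison of arm shares and the rows of the X chromosome and the Dlk1-Dio3 locus were chosen after values were seen. The non-overlap counts with TMM factors and without P9 replicate 3 were added after seeing the data (7 of 7 in both). The count without P9 replicate 3 could not have been lower, so it is no check. Sequences and gene spans are from RefSeq GRCr8.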

Additional observations from a re-analysis of the deposited data

How the results depend on the processing

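Higher and lower calls over all rows depended on single libraries. Leaving out 1 library gave 3 to 53 higher and 32 to 94 lower rows for FFSS against P3 (30 and 60 with all), both being longest without P9 replicate 3, the higher list shortest without P3 replicate 1 and the lower without FFSS replicate 3. For P9 against P3 it gave 8 to 26 higher and 7 to 25 lower rows (17 and 15 with all), most without P9 replicate 3 and fewest without P3 replicate 1 (higher) and 3 (lower). The higher rows of FFSS against P3 numbered 15 with no filter, 51 with only the 2 groups compared and 9 with the replicate block. Of the 7 miRNAs, 2 were lower in FFSS with DESeq2, where 74 of the 439 rows were lower. When 1 library was left out 0 to 2 of the 7 were lower, 2 without P9 replicate 3 and 0 without FFSS replicate 3 or any P3 library. miR-598-3p in FFSS against P3 turned to 0.041 without FFSS replicate 1 and to 0.018 without FFSS replicate 3, and its lowest value was -0.42. Directions in P9 against P3 were fixed by the choice. miR-384-3p was under the filter with a mean of at least 10 counts, and with only FFSS and P3 neither it nor miR-592 had a value. Same-numbered libraries did not deviate together, with correlations of -0.47 to 0.12 over 9 pairs, so the replicate block rests on a shared number only.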
